A study of Mus musculus with 4 samples.

Results

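Invariant natural killer T (iNKT) cells that lack Ezh2 were set against normal antigen-experienced CD4+ T cells, to see which genes of the mutant cells lay above, at or below the level of a conventional memory population. The 2 RNA-seq libraries compared came from mouse spleen on a C57BL/6 background. The library labelled KO iNKT held T cell receptor beta positive cells that bind the PBS-57-loaded CD1d tetramer, from Ezh2fl/fl CD4-Cre mice. In these mice the Cre recombinase is driven by the CD4 promoter, so floxed Ezh2 is deleted in T cells from the stage at which thymocytes express CD4. The library labelled WT CD44hi held T cell receptor beta positive, CD4 positive, CD44 high cells from mice labelled WT. WT iNKT and KO CD44hi, sorted by the same gates from the other genotype, gave the remaining libraries of the series. There was 1 library per group and the labels give no ages, sexes or pooling of animals. The tetramer is not named as a reagent of the CD44hi sort, and no reagent that would set regulatory T cells apart is named. Genes were kept where they reached 5 FPKM (fragments scaled to transcript length and to library size) in at least 1 of the 2 libraries, which left 8732 of 22478 symbols. The gene nearest above that minimum was Arfgap3, with 5.001 FPKM as its larger value, and the nearest below was Zcchc4, with 4.998.

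The methyltransferase Ezh2 gives Polycomb repressive complex 2 (PRC2) its activity. PRC2 trimethylates a lysine of histone H3, a mark that keeps developmental genes silent. iNKT cells carry a semi-invariant T cell receptor that sees lipids on CD1d, develop under the BTB zinc finger factor PLZF (Zbtb16), and leave the thymus as ready-made effectors of type 1, type 2 and type 17 kinds. CD44hi CD4+ T cells of an unimmunised spleen are a mixture of memory, T follicular helper and regulatory T cells.

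With 1 library per side no test, standard error or p-value could be had. A gene was called higher or lower where the difference of log2(FPKM + 1), KO iNKT minus WT CD44hi, reached 2-fold, and the scale understates changes of low genes. The comparison joins cell type and genotype, which cannot be told apart from these 2 libraries; the other 2 libraries are given beside the values that the results turn on. Depth was not recorded, but the steps between low values gave about 5190000 fragments for KO iNKT, 17500000 for WT CD44hi, 4760000 for WT iNKT and 23500000 for KO CD44hi. At that depth a transcript of 2 kilobases listed at 0 in KO iNKT could still stand at up to 0.289 FPKM, the worth of 3 fragments. Counting intervals (95%, exact, on the ratio of plain FPKM values) rest on this estimate and cover counting error only, not variation between animals. The Y-linked genes Ddx3y and Eif2s3y stood at 11.5 and 22.7 FPKM in WT CD44hi and were listed at 0 in KO iNKT, so male donors entered WT CD44hi, where Xist stood at 46.8 FPKM beside them. In WT iNKT 2 of 3 measured sex-linked genes were likewise lower than in WT CD44hi. Whether sex or depth had a part in any difference below was not tested.

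Ezh2 itself (chr6:47530139-47595341, minus strand, mm10) stood at 16.8 FPKM in KO iNKT, 28.9 in WT CD44hi, 15.3 in WT iNKT and 18.5 in KO CD44hi. The value covers the whole gene, and a deletion of some exons leaves reads on the others, so it is no check of the genotype labels. T cell markers Cd3d, Cd3e, Cd3g, Cd247, Thy1 and Lck were all above 80 FPKM in the libraries compared. Cd44 stood at 56.3 FPKM in KO iNKT and 54.3 in WT CD44hi. The iNKT markers Zbtb16 and Klrb1c (NK1.1) were higher in the tetramer-sorted library, though both were also higher in KO CD44hi than in WT CD44hi. The iNKT markers Cxcr6 and Il2rb lay within 2-fold. The regulatory T cell marker Foxp3 stood at 0.115 FPKM in KO iNKT against 53.8 in WT CD44hi. Ctla4, another such marker, was lower as well, whereas Ikzf2 was higher in KO iNKT.

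Most genes lay near the same level in both libraries. Of the 8732 genes, 402 were higher in KO iNKT (4.60%), 635 were lower (7.27%) and 7695 lay within 2-fold (88.1%). The median difference was -0.005 on the log2(FPKM + 1) scale, and the middle 80% of genes lay between -0.79 and 0.70. Normal iNKT cells were set against the same WT CD44hi library for comparison: of 8584 genes measured there, 319 were higher (3.72%) and 694 lower (8.08%). These comparisons share WT CD44hi, so their values are given side by side and not correlated. Scaling the libraries by their upper quartile moved the median to -0.177 and the counts to 267 higher and 789 lower. Scaling to a median difference of 0 gave 390 higher and 639 lower. Calls near the threshold thus lean on which scaling is chosen. Genes at the edge of the call were Hadh, just inside the higher class with 39.6 FPKM against 19.3, and Hadhb, just outside it with 54.3 against 26.7. On the other side Nhlrc2 was just inside the lower class with 4.32 against 9.65 FPKM, and Gfpt1 just outside with 6.43 against 13.9.

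**Figure D1:**
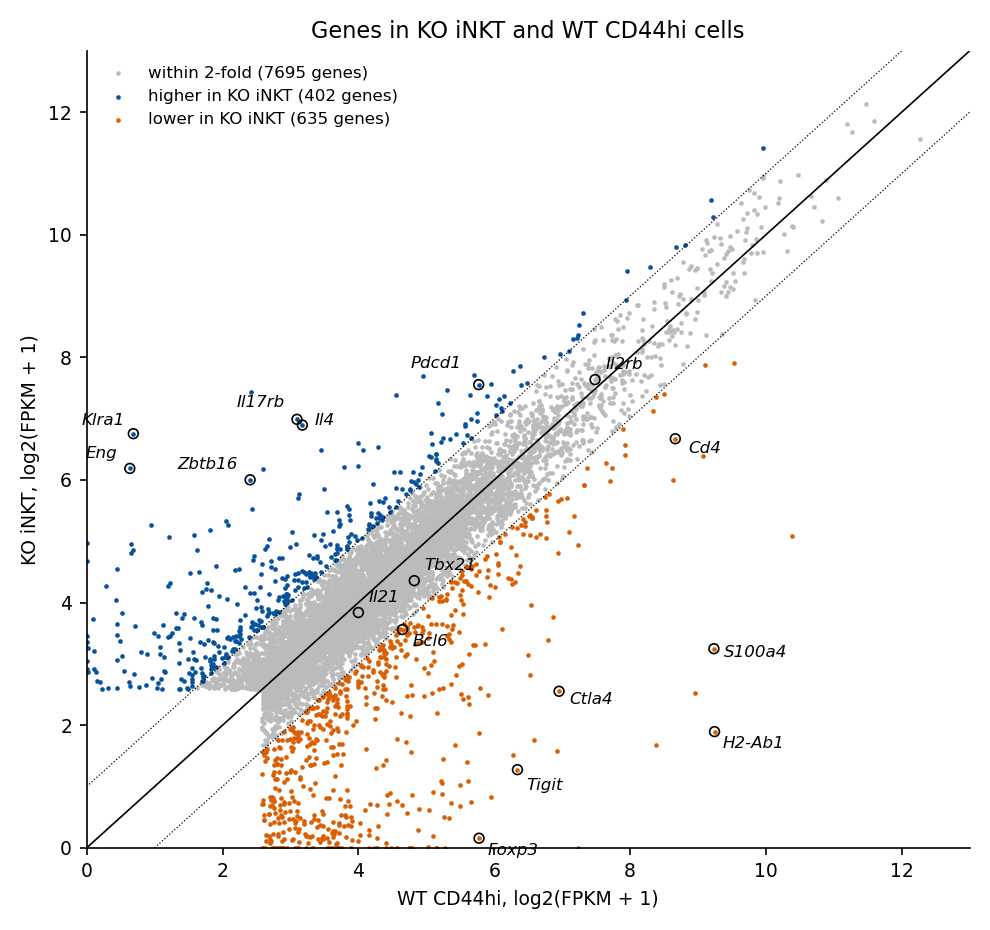
Each point is 1 of the 8732 genes, with its level in WT CD44hi on the x axis and in KO iNKT on the y axis, both as log2(FPKM + 1). The solid line marks equal levels and the dotted lines 2-fold; 402 genes lie above the upper dotted line, among them Klra1, Eng and Il4, and 635 below the lower one, among them H2-Ab1, S100a4 and Foxp3, while Il21, Il2rb and Tbx21 lie between.

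Most of the largest differences on the low side, though not all, belonged to genes that mark other cells. Of 58 measured genes on any list of such markers 42 were lower in KO iNKT, 4 higher and 12 within 2-fold, against 7.27%, 4.60% and 88.1% of all genes. Of the 15 genes with the smallest differences 9 were on those lists. H2-Ab1, which codes for an MHC class II chain of antigen-presenting cells, stood at 2.72 FPKM in KO iNKT, 605 in WT CD44hi, 2.54 in WT iNKT and 934 in KO CD44hi. Itgax (CD11c) and Ly6d were listed at 0 in KO iNKT against 37.8 and 34.7 FPKM in WT CD44hi. All of 6 measured B cell markers, 14 of 15 myeloid markers, 11 of 12 MHC class II genes and 8 of 12 plasmacytoid dendritic cell markers were lower. The summed level of the 18 B cell markers was 5.58 FPKM in KO iNKT, 97.2 in WT CD44hi, 2.70 in WT iNKT and 202 in KO CD44hi, and that of the 19 myeloid markers was 30.1, 546, 56.8 and 906. Plasmacytoid dendritic cell markers summed to 824, 672, 749 and 1418 FPKM, a sum that rests mostly on Ptprcap (693 against 467), which lay within 2-fold like Pacsin1, Bst2 and Ccr9. MHC class II genes summed to 202, 3256, 96.1 and 4963 FPKM. Defining markers Pax5, Siglech and Klk1 were listed at 0 in both iNKT libraries, with 2.04, 11.1 and 6.51 FPKM in WT CD44hi. Both CD44hi libraries thus held more B cell, myeloid and MHC class II transcripts than both iNKT libraries, and the part of such cells in the lower genes described below was not tested. Leaving these genes out gave 398 higher and 593 lower genes.

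**Figure D2:**
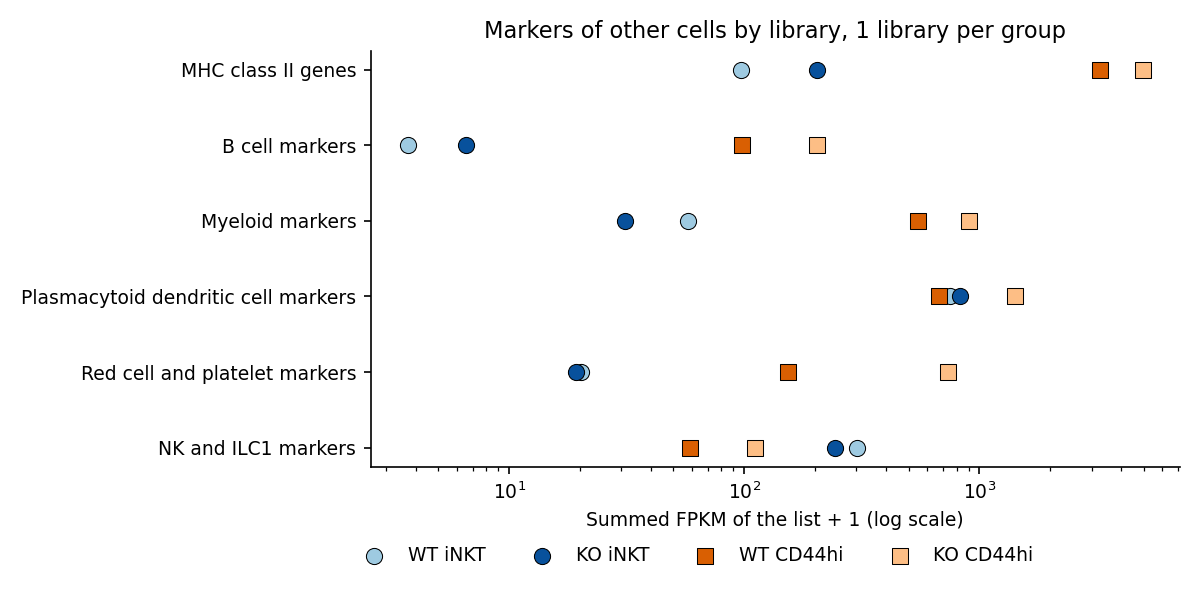
The x axis is the summed FPKM of each marker list + 1 on a log scale, and each symbol is 1 library (circles iNKT, squares CD44hi; dark symbols KO iNKT and WT CD44hi, light symbols WT iNKT and KO CD44hi). MHC class II, B cell, myeloid, and red cell and platelet markers are higher in both CD44hi libraries (3256 and 4963 FPKM for MHC class II) than in both iNKT libraries (96.1 and 202).

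The genes that passed the normal memory level by most included cell surface receptors, GTPase-activating proteins, a calmodulin-binding protein and the cytokine gene Il4. Klra1 (chr6:130363917-130386874), a Ly49 receptor of NK cells, stood at 107 FPKM in KO iNKT, 0.610 in WT CD44hi, 10.7 in WT iNKT and 8.16 in KO CD44hi. KO iNKT was the high library by far, and WT CD44hi the low one. The difference was 6.06 on the log2(FPKM + 1) scale, and the counting interval of the ratio ran from 110 to 297. Eng (chr2:32646595-32682669), the TGF beta co-receptor endoglin, stood at 71.9 FPKM in KO iNKT, 0.553 in WT CD44hi, 2.58 in WT iNKT and 38.9 in KO CD44hi. Both Ezh2fl/fl CD4-Cre libraries held Eng at levels far above both WT libraries. Nrgn, which codes for the calmodulin-binding protein neurogranin, stood at 172 FPKM in KO iNKT and 4.34, 6.75 and 14.5 in WT CD44hi, WT iNKT and KO CD44hi. Epha3, an ephrin receptor, stood at 22.4 FPKM against 0.362 in WT CD44hi, 0.0513 in WT iNKT and 7.39 in KO CD44hi. Here too KO iNKT was highest, KO CD44hi next, and both WT libraries were near 0.

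Other genes among the 15 largest differences showed the same order, with KO iNKT above the rest. Arap3, which codes for a GTPase-activating protein, stood at 28.0 FPKM in KO iNKT, 0.606 in WT CD44hi, 2.24 in WT iNKT and 2.68 in KO CD44hi. Arhgap24, another GTPase-activating protein, stood at 18.3, 0.214, 0.722 and 5.50 FPKM in the same order. Pcsk1, a proprotein convertase that cuts prohormones, stood at 32.4, 1.32, 3.77 and 3.97 FPKM. In each of these 3 genes WT CD44hi was lowest. Kctd15 (12.3 against 0.0713 FPKM) and Tmem146 (26.9 against 0.578 FPKM) were higher as well, with 0.351 and 5.0 FPKM in WT iNKT. Eif3j was listed at 30.4 against 0.00466 FPKM (26.4 in WT iNKT and 3.94 in KO CD44hi) and Klra23, which has near-identical relatives, at 24.5 against 2.12e-06. Both low values are below the worth of 1 fragment, so these genes are uncertain and no fold is given.

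Type 2 cytokine genes were split between the high and the low side. Il4 (chr11:53602982-53618669), the hallmark type 2 cytokine, stood at 118 FPKM in KO iNKT, 8.03 in WT CD44hi, 52.3 in WT iNKT and 11.9 in KO CD44hi. Both iNKT libraries were above both CD44hi libraries, and the ratio of KO iNKT to WT CD44hi was 14.7 (counting interval 11.6 to 18.9). Il17rb (chr14:29996135-30008896), the IL-25 receptor subunit of type 2 responses, stood at 126, 7.55, 160 and 80.9 FPKM in KO iNKT, WT CD44hi, WT iNKT and KO CD44hi. WT CD44hi was the only low library for Il17rb. Il13 stayed under the minimum, with 3.40 FPKM in KO iNKT and 0.157 in WT CD44hi. Gata3, the type 2 lineage factor, lay at the level with 31.1 against 36.8 FPKM, as did Il4ra (14.8 against 20.0) and Stat6 (40.6 against 70.1). Il10, Il9r and Ccr8 were lower, at 0.488 against 5.86, 2.24 against 12.6 and 1.32 against 6.67 FPKM. In all, 2 of 10 measured type 2 genes were higher and 3 lower, against 4.60% and 7.27% of all genes, with a median difference of -0.49. The lower count was 1 with a pseudocount of 5 or a minimum of 10 FPKM. It was 5 with a minimum of 1 FPKM or with values scaled to a common sum. In the latter setting the minimum of 5 was applied to the scaled values, so other genes could enter. Among genes at 1 FPKM in both iNKT libraries the lower count was 0. This filter takes out genes low in KO iNKT, so the count can only stay or fall under it. With KO CD44hi in place of WT CD44hi, 1 type 2 gene was higher and 0 were lower, and the median was 0.29.

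The promoters of Il4 and of Il21, another helper cytokine, are shown because Il4 passed the CD44hi level in KO iNKT and Il21 lay within 2-fold of it. The windows run from 250 bases before to 50 bases after the RefSeq start (GRCm38.p6), for Il4 chr11:53618616-53618915, minus strand, and for Il21 chr3:37232587-37232886, minus strand. Capitals mark GGAAA, the core of sites for NFAT, the calcium-dependent factor of T cell activation, on either strand.
Il4: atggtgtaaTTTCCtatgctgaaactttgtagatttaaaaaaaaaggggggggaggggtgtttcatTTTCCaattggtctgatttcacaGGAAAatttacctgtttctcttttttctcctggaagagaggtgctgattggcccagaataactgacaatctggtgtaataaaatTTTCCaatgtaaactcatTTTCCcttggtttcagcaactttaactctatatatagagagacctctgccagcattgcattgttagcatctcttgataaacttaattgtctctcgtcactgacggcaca
Il21: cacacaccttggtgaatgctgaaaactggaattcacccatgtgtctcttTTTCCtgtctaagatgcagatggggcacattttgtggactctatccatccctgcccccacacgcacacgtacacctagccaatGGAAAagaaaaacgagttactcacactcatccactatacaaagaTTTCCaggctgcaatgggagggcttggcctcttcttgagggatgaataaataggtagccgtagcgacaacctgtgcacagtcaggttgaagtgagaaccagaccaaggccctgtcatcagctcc
The Il4 window held 5 matches and the Il21 window 3. At least 5 matches occurred in 0.755% of 27025 promoters of the same length and at least 3 in 9.54%. A match is a description of these letters only, and binding was not measured.

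Of the lists examined, NK receptor genes had the largest share above the memory level. Of 19 measured NK receptor genes 12 were higher and 3 lower, with a median difference of 1.75, against 4.60% higher and 7.27% lower among all genes. Normal iNKT cells had 13 of 16 higher, 3 lower and a median of 2.48 against the same library, so the trait is not particular to KO iNKT. With KO CD44hi in place of WT CD44hi, 5 were higher and 3 lower, and the median was 0.21. Klra3 stood at 37.5 FPKM in KO iNKT, 0.925 in WT CD44hi, 10.1 in WT iNKT and 14.3 in KO CD44hi, and Klra9 at 15.4, 0.345, 4.11 and 3.57 in the same order. Klrb1a, a member of the NKR-P1 family, stood at 29.9, 0.572, 6.66 and 2.81 FPKM. For these genes KO iNKT was also above WT iNKT. Klrb1c, which codes for NK1.1, stood at 96.2 FPKM in KO iNKT, 14.9 in WT CD44hi, 177 in WT iNKT and 58.5 in KO CD44hi, so it remained above the memory level but below normal iNKT cells. The CD94 gene Klrd1 followed the same order, with 56.5, 23.9, 182 and 45.3 FPKM, as did its partners Klrc1 (33.8, 13.8, 69.8 and 49.8) and Klrc2 (21.2, 4.92, 53.5 and 13.7), except that KO CD44hi was above KO iNKT for Klrc1. Klrk1 (NKG2D) and Klre1 lay within 2-fold, at 22.3 against 11.2 and 5.81 against 2.89 FPKM. Klri1, Cd244 and Klrg1 were lower, at 1.55 against 19.5, 0.101 against 5.46 and 1.08 against 9.32 FPKM. Ly49 (Klra) genes are near-identical copies, so the value of a single member is uncertain. The NK cell marker Ncr1 stood at 0.285 FPKM in KO iNKT and 1.42 in WT CD44hi, while the summed level of the 12 NK and ILC1 markers, some of which iNKT cells also express, was 243 and 57.7 FPKM. The part of contaminating NK cells was not tested.

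These receptor genes lie together. Between the outermost Klr genes of this cluster on chromosome 6 (chr6:128609227-131247362), 24 genes were measured, of which 12 were higher, 5 lower and 7 within 2-fold. On the whole chromosome 7.46% of measured genes were higher and 11.6% lower, against 4.60% and 7.27% over all chromosomes. Genes of the same stretch outside the NK receptor list included Cd69 and Clec2i, which were lower, and 2310001H17Rik, which was higher (49.0 against 19.6 FPKM). Cd69 stood at 33.8 against 70.1 FPKM and Clec2i at 5.12 against 54.4, with 49.8 in WT iNKT and 43.9 in KO CD44hi, so Clec2i was low in KO iNKT alone. On chromosome 14, Chdh (choline dehydrogenase), which begins just beyond the end of Il17rb, stood at 37.6 FPKM in KO iNKT, 3.24 in WT CD44hi, 28.2 in WT iNKT and 27.6 in KO CD44hi. Its pattern was that of Il17rb, with WT CD44hi alone low, while Actr8 on the other side, which overlaps Il17rb and cannot be told apart from it in the overlap without strand, lay at 16.2 against 20.8 FPKM.

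Most genes of the iNKT lineage lay within 2-fold of the memory level, as most genes did. Of 20 measured, 5 were higher, 1 lower and 14 within 2-fold, against 4.60%, 7.27% and 88.1% of all genes, with a median difference of 0.43. Zbtb16 (chr9:48654297-48836222), the PLZF gene, stood at 63.1 FPKM in KO iNKT, 4.30 in WT CD44hi, 28.2 in WT iNKT and 41.4 in KO CD44hi. The ratio of KO iNKT to WT CD44hi was 14.7 with a counting interval of 13.1 to 16.4, and WT CD44hi was again the only low library. Myb, a proto-oncogene required for iNKT precursors, stood at 56.6, 10.3, 7.04 and 20.9 FPKM in KO iNKT, WT CD44hi, WT iNKT and KO CD44hi, so KO iNKT was high and WT iNKT low. Sh2d1a, the adaptor SAP, stood at 159, 65.9, 127 and 59.8 FPKM, with both iNKT libraries above both CD44hi libraries. Egr2 (14.6 against 16.3 FPKM), which acts upstream of PLZF, and Runx1 (19.9 against 20.0) lay at the level, and Slamf1 was lower at 5.12 against 16.2.

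T follicular helper genes were found above, at and below the memory level. Of 19 measured, 4 were higher, 7 lower and 8 within 2-fold, with a median difference of -0.45, against 4.60% higher and 7.27% lower among all genes. The median turned to 0.58 among genes at 1 FPKM in both iNKT libraries, where 2 lower members remained. This filter takes out genes low in KO iNKT, so the shift follows at least in part from the choice. Against the same library, normal iNKT cells had none higher, 13 lower and a median of -2.31. With KO CD44hi in place of WT CD44hi, the median for KO iNKT was 0.85, with 6 genes higher and 3 lower. Pdcd1 (PD-1; chr1:94038305-94052553), an inhibitory receptor, stood at 187 FPKM in KO iNKT, 53.6 in WT CD44hi, 10.2 in WT iNKT and 24.0 in KO CD44hi. KO iNKT was the highest library and the ratio to WT CD44hi was 3.49 (counting interval 3.27 to 3.72). Icos, a costimulatory receptor of follicular helper cells, stood at 218, 76.6, 136 and 77.5 FPKM, and Cd200 at 40.8, 18.8, 2.44 and 9.55. Icos was high in both iNKT libraries, and Cd200 only in KO iNKT.

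Il21 (chr3:37222759-37232636), the cytokine of germinal centre help, stood at 13.3 FPKM in KO iNKT, 15 in WT CD44hi, 0.135 in WT iNKT and 2.34 in KO CD44hi. The ratio of KO iNKT to WT CD44hi was 0.887 with a counting interval of 0.759 to 1.03, which includes equal levels. Tox2, a nuclear factor of follicular helper cells, stood at 25.6, 35.4, 0.658 and 18.3 FPKM, and Angptl2, a secreted glycoprotein, at 21.6, 27.7, 0.0597 and 2.68. In all 3 genes WT iNKT was near 0 and KO iNKT lay with WT CD44hi. Tox (47.5 against 36.7 FPKM), Btla (70.4 against 46.9) and Maf (49.6 against 74.4) were also within 2-fold. Bcl6, the lineage factor of follicular helper cells, stood at 10.8 FPKM in KO iNKT, 24.1 in WT CD44hi, 5.59 in WT iNKT and 14.5 in KO CD44hi. Cxcr5, the receptor that leads these cells to the B cell follicle, stood at 18.8, 75.9, 0.963 and 36.5 FPKM. Both were therefore above WT iNKT and below WT CD44hi, with a ratio of WT CD44hi to KO iNKT of 4.04 for Cxcr5 (counting interval 3.57 to 4.58). Sostdc1, Cebpa and Tnfsf8 stayed far below, at 0.810 against 20.5, 0.441 against 7.57 and 2.21 against 41.7 FPKM.

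**Figure D3:**
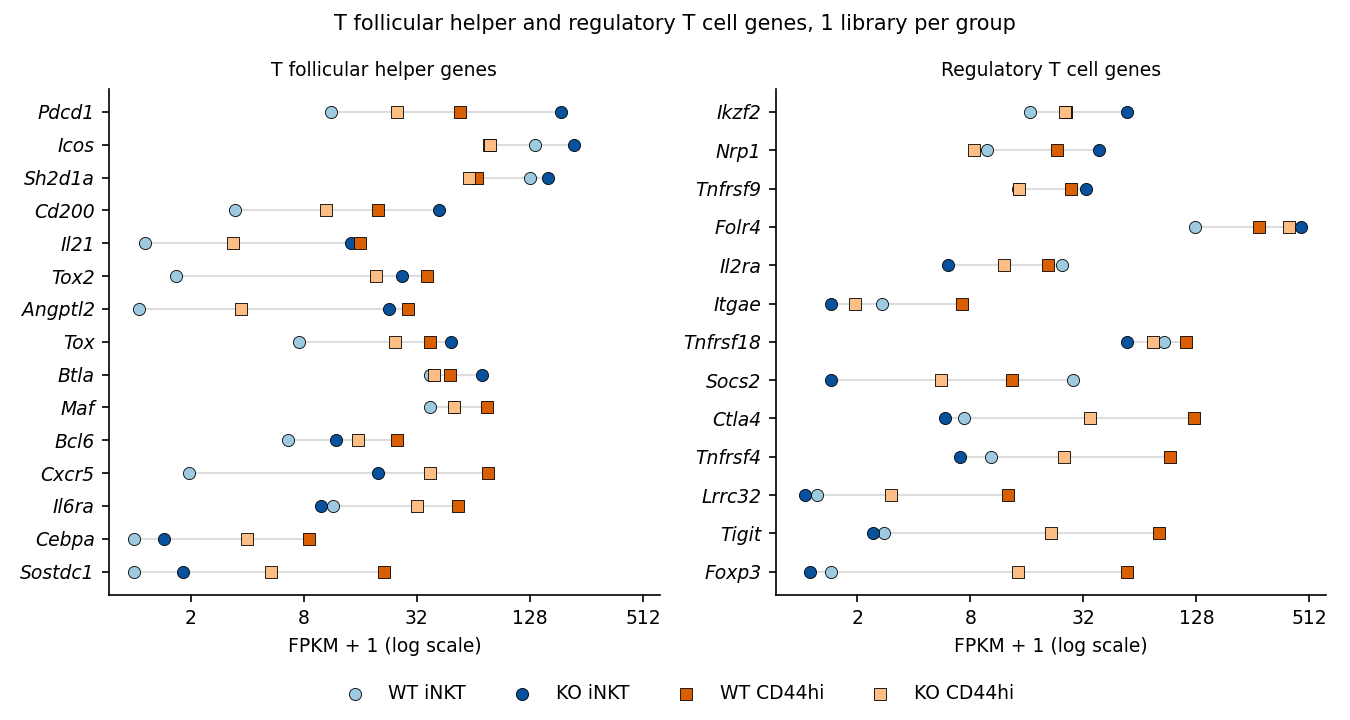
The x axis is FPKM + 1 on a log scale, each row is a gene, and each symbol is 1 library (circles iNKT, squares CD44hi; dark symbols the 2 libraries compared, light symbols WT iNKT and KO CD44hi). Among T follicular helper genes KO iNKT runs from above WT CD44hi (Pdcd1, 187 against 53.6 FPKM) to far below it (Sostdc1, 0.810 against 20.5), and among regulatory T cell genes it lies mostly to the left of WT CD44hi.

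Of all genes within 2-fold of WT CD44hi, 12 were singled out by how far WT iNKT lay below, so a low WT iNKT value follows from the choice. Besides Angptl2, Tox2 and Il21 they included Tiam1, an exchange factor of the GTPase Rac, with 18.9 FPKM in KO iNKT, 32.7 in WT CD44hi, 1.89 in WT iNKT and 9.68 in KO CD44hi. Batf3, a transcription factor known from dendritic cells, stood at 7.05 and 9.30 FPKM in the libraries compared and was listed at 0 in WT iNKT, with 13.8 in KO CD44hi. Rnf43, a ubiquitin ligase that removes Wnt receptors, stood at 29.4, 19.2, 1.70 and 21.3 FPKM in KO iNKT, WT CD44hi, WT iNKT and KO CD44hi. Spock2 (21.6 against 12.4 FPKM), Vim, the intermediate filament vimentin (120 against 227), Plekho1 (35.0 against 61.6), Ptms (75.7 against 107) and B4galnt4 (8.46 against 15.6) were at the level too, with 1.15 to 35.6 FPKM in WT iNKT. The twelfth, Atp6v0c-ps2, is a pseudogene whose reads may belong to its parent gene.

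Type 1 genes lay at the memory level or below it in KO iNKT cells, with 1 exception. Of 19 measured, 13 lay within 2-fold of WT CD44hi, 1 was higher and 5 were lower, against 88.1%, 4.60% and 7.27% of all genes, with a median difference of -0.46. Normal iNKT cells had 11 higher, 2 lower and a median of 1.46 against the same library. Il2rb, the beta chain shared by the IL-2 and IL-15 receptors, stood at 198 FPKM in KO iNKT, 178 in WT CD44hi, 814 in WT iNKT and 102 in KO CD44hi. Cxcr6, a chemokine receptor of resident lymphocytes, stood at 94.6, 69.6, 468 and 127 FPKM, and Nkg7, a membrane protein of cytotoxic granules, at 73.5, 78.7, 437 and 82.3. WT iNKT was the high library in all 3 and KO iNKT lay with the CD44hi libraries; for Nkg7 the ratio to WT CD44hi was 0.934 (counting interval 0.826 to 1.06). Tbx21, which codes for the type 1 lineage factor T-bet, stood at 19.5, 27.3, 70.4 and 37.3 FPKM in KO iNKT, WT CD44hi, WT iNKT and KO CD44hi. The chemokine genes Ccl5 (204 against 306 FPKM) and Xcl1 (37.2 against 51.8) and the receptor Cxcr3 (89.9 against 137) were within 2-fold, with 925, 150 and 234 FPKM in WT iNKT. For each of them KO iNKT was the lowest of the libraries named.

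Other type 1 genes went below the memory level. Ifng (chr10:118441046-118445892), which codes for interferon gamma, stood at 12.9 FPKM in KO iNKT, 40.0 in WT CD44hi, 112 in WT iNKT and 17.9 in KO CD44hi. Stat4, the transcription factor downstream of IL-12, stood at 9.03, 57.0, 47.3 and 33.5 FPKM, with a ratio of WT CD44hi to KO iNKT of 6.32 (counting interval 5.33 to 7.54). Runx3, a partner of T-bet, stood at 10.7, 30.0, 24.8 and 31.3 FPKM. KO iNKT was the lowest of the 4 libraries for all 3. Ccl3 and Ccl4 were low in both iNKT libraries, with 0.611 and 0.393 FPKM in KO iNKT against 13 and 9.21 in WT CD44hi. The IL-12 receptor subunit Il12rb1 was the exception on the high side, with 38.3, 18.3, 63.7 and 34.6 FPKM; it lay just past 2-fold, and no type 1 gene was higher with a pseudocount of 5, with upper quartile scaling or with values scaled to a common sum.

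**Figure D4:**
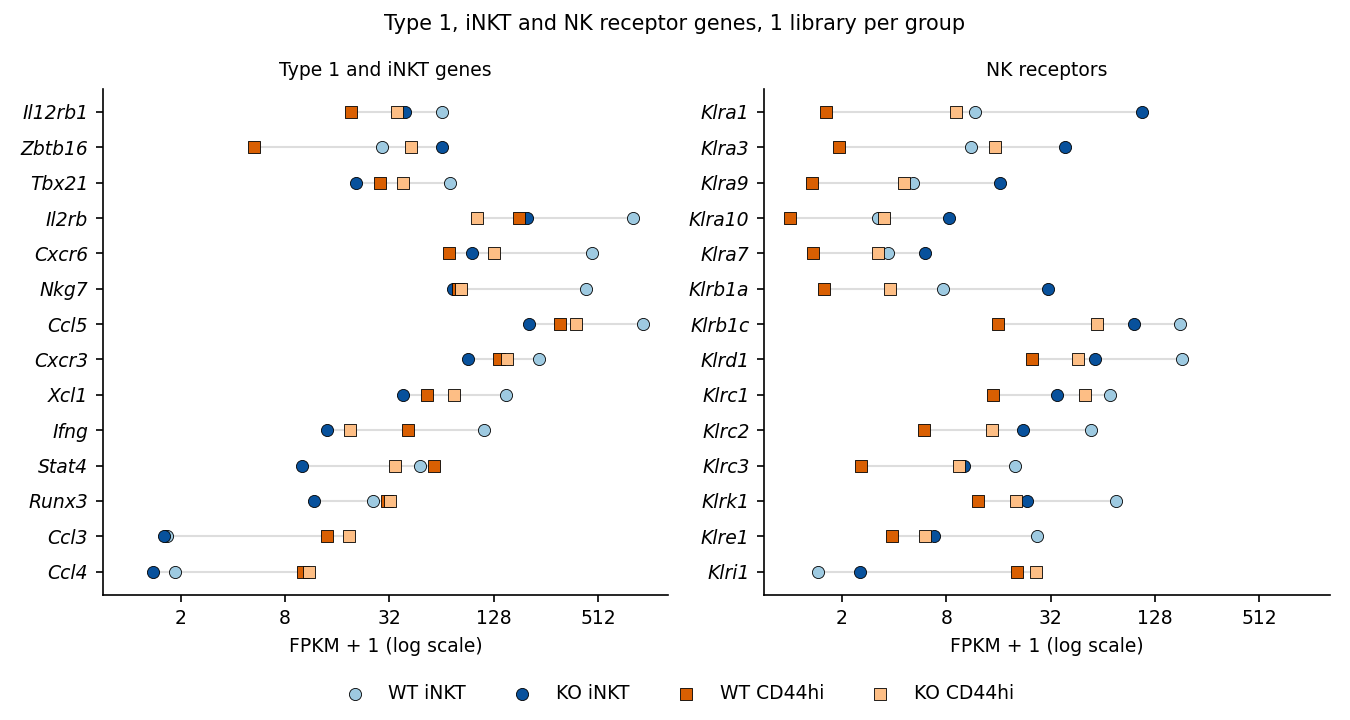
The x axis is FPKM + 1 on a log scale, each row is a gene, and each symbol is 1 library (circles iNKT, squares CD44hi; dark symbols KO iNKT and WT CD44hi, light symbols WT iNKT and KO CD44hi). Il2rb, Cxcr6 and Nkg7 show WT iNKT far to the right (437 to 814 FPKM) and KO iNKT beside WT CD44hi, while the Klra genes show KO iNKT farthest to the right.

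Of all genes within 2-fold of WT CD44hi, 12 more were singled out by how far WT iNKT lay above, so a high WT iNKT value follows from the choice. Beside Cxcr6, Nkg7, Klrk1 and Klre1 they included Itgb3, an integrin beta chain, with 24.8 FPKM in KO iNKT, 13.8 in WT CD44hi, 75.0 in WT iNKT and 22.4 in KO CD44hi. Lmo4, a LIM-domain transcriptional adaptor, stood at 64.5, 45.8, 227 and 119 FPKM, and Aqp9, a water and glycerol channel, at 7.19, 3.25, 32.1 and 13.2. The remaining 5 (Arl4d, Prrt1, Ly6g5b, Tmem106b and Lars2) lay between 7.16 FPKM for Ly6g5b and 22.2 for Tmem106b in KO iNKT and between 27.8 and 83.3 in WT iNKT.

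Regulatory T cell genes stayed mostly below. Of 21 measured, 14 were lower and 1 higher, against 7.27% and 4.60% of all genes, with a median difference of -1.68 and one of -1.42 for normal iNKT cells. The median was -0.98 with a pseudocount of 5, and 9 genes were lower with a minimum of 10 FPKM. Among genes at 1 FPKM in both iNKT libraries, a filter that takes out genes low in KO iNKT, 8 were lower. With KO CD44hi in place of WT CD44hi, 3 were higher and 5 lower, and the median was -0.62. Foxp3 (chrX:7573644-7595245), the lineage factor, stood at 0.115 FPKM in KO iNKT, 53.8 in WT CD44hi, 0.446 in WT iNKT and 13.4 in KO CD44hi. Both iNKT libraries were near 0. Ctla4, an inhibitory receptor, stood at 4.87, 123, 6.39 and 33.8 FPKM, Tigit, another, at 1.42, 80.1, 1.78 and 20.5, and the costimulatory receptor Tnfrsf4 (OX40) at 6.03, 91.2, 9.36 and 24.1. In this bulk RNA, fewer cells of a type and less RNA per cell cannot be told apart, and no reagent named for the CD44hi sort sets regulatory T cells apart. The ratio of WT CD44hi to KO iNKT was 56.6 for Tigit (counting interval 27 to 144) and 25.3 for Ctla4 (19.1 to 34.3). Ikzf2 (Helios) was the member on the high side, at 53.3 FPKM in KO iNKT, 25.0 in WT CD44hi, 15.6 in WT iNKT and 24.4 in KO CD44hi; no member was higher with a pseudocount of 5 or with upper quartile scaling. The folate receptor gene Folr4 (461 against 275 FPKM), Nrp1, which codes for neuropilin-1 (37.6 against 22), and Tnfrsf9 (32.0 against 26.6) were at the level.

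Type 17 genes were low in KO iNKT cells. Of 9 measured, 5 were lower and none was higher, against 7.27% and 4.60% of all genes, with a median difference of -2.76. Normal iNKT cells had 6 of 9 lower, none higher and a median of -1.35 against the same library. The median moved to -1.17 with a pseudocount of 5, to -4.29 with a pseudocount of 0.1 and to -1.45 with no minimum, and 11 genes were lower with a minimum of 1 FPKM. With values scaled to a common sum 12 were lower, where the minimum of 5 was applied to the scaled values and more genes entered. Among genes at 1 FPKM in both iNKT libraries, a filter that takes out genes low in KO iNKT, 2 were lower. Ccr6, the chemokine receptor of type 17 cells, was listed at 0 in KO iNKT, with 25.7 FPKM in WT CD44hi, 0.19 in WT iNKT and 10.5 in KO CD44hi. Tmem176b, a membrane protein high in type 17 cells, stood at 1.87, 76.4, 10.8 and 75.5 FPKM, and Tmem176a at 2.66, 54.0, 6.94 and 45.0. KO iNKT was the lowest library for both Tmem176 genes, while Ccr6 was near 0 in both iNKT libraries, which cannot be ranked at this depth. Batf (76.0 against 82.2 FPKM) and Stat3 (49.8 against 56.7), which act in several lineages, were at the level, and Il17a, Il17f and Il22 stayed under 2 FPKM in both libraries.

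**Figure D5:**
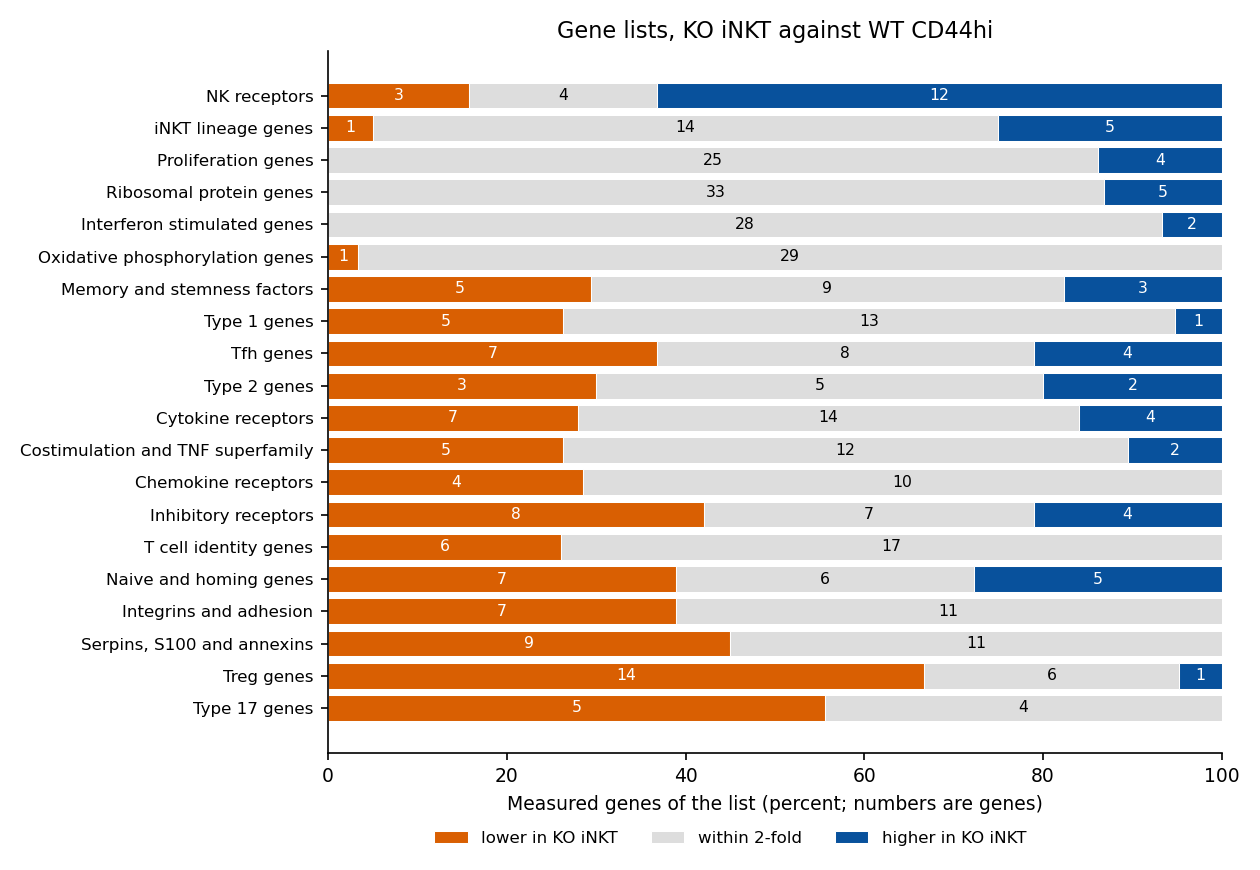
Bars give, for 20 gene lists, the percent of measured genes lower in KO iNKT than in WT CD44hi, within 2-fold and higher; the numbers in the bars are genes. NK receptors (12 of 19 higher) stand at one end, and regulatory T cell genes (14 of 21 lower) and type 17 genes (5 of 9 lower) at the other, while proliferation, ribosomal protein and interferon stimulated genes lie mostly within 2-fold.

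The lowest genes that normal iNKT cells also expressed, leaving out markers of other cells, were led by S100a4 (chr3:90603771-90606045), a calcium-binding protein of memory cells. It stood at 8.50 FPKM in KO iNKT, 601 in WT CD44hi, 76.1 in WT iNKT and 257 in KO CD44hi, a ratio of WT CD44hi to KO iNKT of 70.8 (counting interval 46.7 to 113). Il10ra, the ligand-binding chain of the IL-10 receptor, stood at 1.14, 47.8, 7.77 and 43.9 FPKM. The inflammatory caspases Casp1 (0.684, 49.3, 2.37 and 20.7 FPKM) and Casp4 (0.875, 33.1, 3.31 and 10.1) shared this order. In each of these genes KO iNKT was lowest and WT CD44hi highest. Alox5ap, which serves leukotriene synthesis, stood at 0.551 against 28.7 FPKM, Vcam1, an adhesion molecule, at 0.617 against 24.0, and Pld4, a phospholipase D family member, at 0.606 against 44.2. Dendritic cells or macrophages also express these 3, and the summed myeloid markers given above were 30.1 FPKM in KO iNKT against 546 in WT CD44hi. The values of Eno1 (1.04 against 44.2 FPKM) and Ndufs5 (0.00789 against 31.6, less than 1 fragment) go against their use by every cell, so they are listed but not read as levels.

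Genes induced by cytokine signals were below the memory level in part. Of 20 SOCS, STAT and kinase genes measured, 1 was higher (Socs5, 10.7 against 4.66 FPKM), 4 were lower and 15 within 2-fold. The shares over all genes were 4.60%, 7.27% and 88.1%. Socs2, a feedback inhibitor of growth hormone and STAT5 signals, stood at 0.444 FPKM in KO iNKT, 12.4 in WT CD44hi, 27.3 in WT iNKT and 4.60 in KO CD44hi. Cish, a STAT5-induced inhibitor of the same family, stood at 7.23, 33.7, 31.7 and 15.2 FPKM, a ratio of WT CD44hi to KO iNKT of 4.67 (counting interval 4.01 to 5.47). Socs3, which restrains IL-6 family receptors, stood at 23.1, 49.8, 19.1 and 23.6 FPKM. Socs2 and Cish were lowest in KO iNKT, whereas Socs3 was high in WT CD44hi alone. The STAT5 genes themselves, Stat5a (27 against 24.9 FPKM) and Stat5b (43.6 against 48.1), and the kinases Jak1 (133 against 134) and Jak3 (81.6 against 69.1) lay at the level. Serpina3g, an intracellular protease inhibitor, stood at 4.51, 48.0, 76.1 and 27.5 FPKM and Bhlhe40, a repressor of the circadian family, at 14.7, 45.3, 74.9 and 22; both were lowest in KO iNKT.

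The promoters of Cish and Socs3 are shown because both inhibitors were lower in KO iNKT than in WT CD44hi and are known targets of STAT factors. The windows are chr9:107296409-107296708, plus strand, and chr11:117969317-117969616, minus strand (RefSeq, GRCm38.p6). Capitals mark TTCNNNGAA, the STAT element known as GAS, which reads the same on either strand.
Cish: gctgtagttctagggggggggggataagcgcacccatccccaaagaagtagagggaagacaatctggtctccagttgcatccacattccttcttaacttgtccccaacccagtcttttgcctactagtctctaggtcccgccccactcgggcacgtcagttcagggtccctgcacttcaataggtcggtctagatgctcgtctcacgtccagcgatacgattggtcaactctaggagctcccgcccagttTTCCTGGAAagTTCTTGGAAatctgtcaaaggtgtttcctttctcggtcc
Socs3: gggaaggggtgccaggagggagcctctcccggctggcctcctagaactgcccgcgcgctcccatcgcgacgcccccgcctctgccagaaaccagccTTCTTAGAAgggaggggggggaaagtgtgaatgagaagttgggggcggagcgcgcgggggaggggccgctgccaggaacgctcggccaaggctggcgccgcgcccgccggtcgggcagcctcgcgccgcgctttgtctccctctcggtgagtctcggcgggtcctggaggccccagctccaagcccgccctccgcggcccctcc
Cish held 2 matches, at positions 251 and 262 of the window, and Socs3 held 1, at position 97. Both Cish matches overlap a GGAAA. At least 1 match occurred in 8.42% of 27025 promoters and at least 2 in 0.463%. Stat5 or Stat3 binding was not measured here.

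The receptor and adhesion genes that mark a CD4 T cell were uneven. Of 23 T cell identity genes 6 were lower and none was higher, against 7.27% and 4.60% of all genes. Cd4 (chr6:124864692-124888221) stood at 101 FPKM in KO iNKT, 405 in WT CD44hi, 98.8 in WT iNKT and 252 in KO CD44hi. CD4 was part of the CD44hi gate and not of the tetramer gate. Thy1, a surface glycoprotein of T cells, stood at 82.7, 537, 449 and 432 FPKM, so KO iNKT alone was low, with a ratio of WT CD44hi to KO iNKT of 6.49 (counting interval 6.03 to 6.99). Cd2, an adhesion receptor, stood at 63.3, 394, 166 and 217 FPKM and Ubash3a, a phosphatase that damps T cell receptor signals, at 4.37, 45.5, 12.6 and 18.4. Lat, the adaptor below the T cell receptor, stood at 233 against 550 FPKM and Bcl11b, a T lineage factor, at 19.4 against 46.1. The signalling chains Cd3e (307 against 308 FPKM) and Cd3g (519 against 542) and the kinase gene Lck (346 against 397) lay at the level.

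Among 18 integrin and adhesion genes 7 were lower and none was higher, against 7.27% and 4.60% of all genes. Itga4, the alpha chain of VLA-4, stood at 49.4 FPKM in KO iNKT, 122 in WT CD44hi, 10.9 in WT iNKT and 73.0 in KO CD44hi. Selplg, a ligand of selectins, stood at 94.5, 243, 226 and 244 FPKM, low in KO iNKT alone. Of 14 chemokine receptors 4 were lower and none was higher; S1pr1, which leads T cells out of lymphoid tissue, stood at 41.8, 107, 27 and 69.7 FPKM. Ccr4 (46.2 against 31.4 FPKM), Ccr2 (27.8 against 24.6) and Cxcr4 (67.9 against 73.1) lay at the level. Of 25 cytokine receptors 4 were higher (Eng, Il17rb, Il7r and Il12rb1) and 7 lower. Il7r, the survival receptor of memory cells, stood at 316, 148, 598 and 195 FPKM, with both iNKT libraries high. Ifngr1, the interferon gamma receptor, stood at 23.3, 82.6, 91.8 and 66.2 FPKM, low in KO iNKT alone. Il6ra (8.90 against 51.7 FPKM) and Il6st (11.4 against 41.0), which form the IL-6 receptor, were both below the memory level.

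Inhibitory and costimulatory receptors were also split. Of 19 measured inhibitory receptors and related factors 4 were higher and 8 lower, against 4.60% and 7.27% of all genes. Nr4a2, an orphan nuclear receptor induced by antigen, stood at 17 FPKM in KO iNKT, 2.25 in WT CD44hi, 0.823 in WT iNKT and 1.23 in KO CD44hi, and was high in KO iNKT alone. Cd160 stood at 46.7, 13.2, 75.2 and 54.5 FPKM, low in WT CD44hi alone. Lag3, a CD4-like inhibitory receptor, stood at 11.3, 38.7, 0.538 and 22.4 FPKM, above normal iNKT cells but below the memory level. Of 19 genes of costimulation and the TNF superfamily 2 were higher and 5 lower. Tnfsf11, which codes for RANK ligand, stood at 61.9, 26.4, 8.10 and 21.6 FPKM, while Tnf stood at 19.3, 41.8, 17.2 and 33.9. Cd40lg, the ligand for B cell help, lay at the level with 103 against 107 FPKM.

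Factors of memory and stemness were found on both sides of the level and at it. Of 17 measured, 3 were higher (Myb, Id3 and Satb1) and 5 lower, against 4.60% and 7.27% of all genes. Id3, an inhibitor of E proteins, stood at 175 FPKM in KO iNKT, 38.7 in WT CD44hi, 11.4 in WT iNKT and 47.9 in KO CD44hi, a ratio of KO iNKT to WT CD44hi of 4.52 (counting interval 4.13 to 4.94). KO iNKT was by far the highest library. Tcf7, the gene of TCF-1, stood at 558, 505, 159 and 429 FPKM and its relative Lef1 at 74.5, 45.4, 30.9 and 40.4, so both lay within 2-fold of the memory level in KO iNKT; in WT iNKT Tcf7 was lower and Lef1 also within 2-fold. Klf2, which drives exit from lymphoid tissue, stood at 51.0, 133, 47.7 and 81.4 FPKM, lowest in the iNKT libraries. Among 18 naive and homing genes 5 were higher and 7 lower, led by Treml2 (34.7 against 7.13 FPKM), Ly6c2 (167 against 48.9) and Dapl1, which was listed at 0 against 26.6.

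Granule genes differed member by member. Gzma, the gene of granzyme A, stood at 89.0 FPKM in KO iNKT, 9.97 in WT CD44hi, 1.72 in WT iNKT and 5.92 in KO CD44hi, high in KO iNKT alone, with a ratio to WT CD44hi of 8.93 (counting interval 7.49 to 10.7). Ctsw, a cathepsin of cytotoxic cells, stood at 164, 58.6, 279 and 154 FPKM, low in WT CD44hi alone. Gzmb and Gzmk went the other way, at 0.443 against 9.22 FPKM and listed at 0 against 21.3. Stx11, a syntaxin needed for granule release, was lower too, at 7.01 against 20.2 FPKM. The other 9 of 14 measured lay within 2-fold, against 88.1% of all genes. The perforin gene Prf1 stayed under the minimum, at 1.45 against 4.79.

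Genes of the S100, annexin and serpin families lay at the level or below it. Of 20 measured, 9 were lower and none was higher, with a median difference of -0.95, against 7.27% lower among all genes. Lgals1, the gene of galectin-1, stood at 139 FPKM in KO iNKT, 324 in WT CD44hi, 166 in WT iNKT and 212 in KO CD44hi, and Anxa1 at 0.752, 5.68, 15 and 5.37. S100a11 (702 against 506 FPKM) and Anxa2 (91.8 against 74.3) lay at the level, with 265 and 27.1 FPKM in WT iNKT.

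Immediate early genes, which respond to stimulation and to handling, were mostly level: of 25 measured, 1 was higher (Nr4a2), 5 were lower and 19 within 2-fold. The shares over all genes were 4.60%, 7.27% and 88.1%. Fos stood at 197 against 182 FPKM and Egr1 at 62.3 against 70.6, whereas Jun stood at 18.0 against 63.8. Of 19 genes of TGF beta, Notch and Wnt signalling, 3 were higher and 3 lower. The Wnt receptor Fzd6 stood at 9.38 FPKM in KO iNKT, 0.406 in WT CD44hi, 0.599 in WT iNKT and 4.96 in KO CD44hi. As with Eng, the Ezh2fl/fl CD4-Cre libraries were high and the WT libraries near 0. The TGF beta transducer Smad3 was higher (57.6 against 22.6 FPKM), and its inhibitor Smad7 lower (3.0 against 14.2), as was the Notch regulator Dtx1 (29.6, 150, 120 and 115 FPKM in KO iNKT, WT CD44hi, WT iNKT and KO CD44hi), low in KO iNKT alone.

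Most cell cycle genes lay within 2-fold of the memory level. Of 29 measured, 4 were higher and none was lower, against 4.60% and 7.27% of all genes, and the median difference was 0.70; for normal iNKT cells the median was -0.15. Only 1 gene was higher with a pseudocount of 5 or with upper quartile scaling, and 2 with a minimum of 10 FPKM. Uhrf1, which maintains DNA methylation at replication, stood at 25.6 FPKM in KO iNKT, 9.49 in WT CD44hi, 6.14 in WT iNKT and 9.85 in KO CD44hi. Ccne1 (13.4 against 6.11 FPKM), Cdk1 (7.69 against 3.10) and Ccnb1 (6.70 against 2.63) were the other 3, and Mki67 lay at 17.7 against 18.1. Scaled by the upper quartile the median was 0.55. The CDK inhibitor gene Cdkn1b (p27) was lower, at 36.3 against 79.8 FPKM, and Cdkn2a, a known PRC2 target in other cells, was listed at 0 against 0.362.

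Genes of general cell function lay near the level. Of 38 ribosomal protein genes 5 were higher and none was lower, against 4.60% and 7.27% of all genes. Their median was 0.51, with one of 0.40 in normal iNKT cells, and upper quartile scaling gave 0.34. Of 30 oxidative phosphorylation genes 29 lay within 2-fold, with a median of 0.21, and Ndufs5 was the exception named above. Of 30 interferon stimulated genes 2 were higher (Oasl1, 12.3 against 2.76 FPKM, and Oas3, 26.9 against 11.8), none was lower and the median was 0.30. All 14 heat shock genes measured were within 2-fold. Among 17 glycolysis genes 3 were higher, Pgk1 most with 120 against 46.3 FPKM. Of 20 apoptosis genes 18 lay within 2-fold; the BH3-only gene Bbc3 (Puma) was higher at 19.5 against 5.81 FPKM, and its relative Pmaip1 (Noxa) was lower at 10.2 against 39.3, with 0.395 in WT iNKT.

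PRC2 and its partners were measured as well. Of 11 PRC2 genes 1 was higher and 2 were lower, against 4.60% and 7.27% of all genes. The core subunits Suz12 (40.7 FPKM in KO iNKT, 23.2 in WT CD44hi) and Eed (35.2 against 28.4) and the alternative methyltransferase gene Ezh1 (16.6 against 24.0) lay within 2-fold. The accessory genes Phf1 (38.6 against 109 FPKM) and Aebp2 (42.0 against 91.4) were lower. Of 19 genes of PRC1 and H3K27 demethylases 17 lay within 2-fold, with Cbx6 higher (35.8 against 16.7 FPKM) and Pcgf1 lower (2.14 against 11.4).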

How the data were processed

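Values were the FPKM that the authors deposited per gene and library; Cufflinks 2.0.2, TopHat 1.3.2, Bowtie2 2.0.0 and build mm10 are listed in the submitters' processing notes, and per the labels the RNA was total RNA made into libraries with a TruSeq kit, which does not mark strand. The deposited FPKM were summed over rows of 1 symbol (219 symbols), 780 small RNA symbols and 26 date-like symbols were left out, and 22478 symbols were used. The date-like symbols occurred in both CD44hi libraries and in neither iNKT library. Differences are of log2(FPKM + 1). The members and gene lists were chosen with earlier results of these data known. Named genes were the 15 largest and 15 smallest differences, 12 lowest genes at 1 FPKM or more in WT iNKT that mark no other cell, 12 genes at the level from each side, list members with the largest differences or at the level, and regulators; unnamed, multi-row and receptor segment genes were left out. Gene positions and lengths are from GENCODE M21. Depth was estimated from the FPKM steps of genes with 1 transcript of 2000 bases or more; 90.3% of 11716 genes at 1 FPKM had a length. Cufflinks shares fragments among transcripts and copies, so intervals are approximate. Of the measured genes 72.8% had a RefSeq promoter. Calls and intervals were tested on simulated data with counting error only, where changes well past 2-fold were planted in highly expressed genes. Changes near 2-fold or in low genes were not simulated, nor was variation between animals. The simulated intervals used the known depth, not an estimated one. Python 3 libraries were pandas, NumPy, SciPy and matplotlib. Another pseudocount, minimum, scaling or gene set was tried for the counts of calls, the list summaries and the genes named by rank or as regulators; other genes, regions, chromosome shares and intervals have the main setting only. Values of some list members are not reported here.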

Additional observations from a re-analysis of the deposited data

How the results depend on the processing

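The counts of 402 higher and 635 lower genes and the median of -0.005 were recomputed under 12 alternatives. With a pseudocount of 5 the counts were 216 and 417. Lower genes numbered 1082 with a minimum of 1 FPKM and with no minimum, and 1098 with values scaled to a common sum. In that scaling the minimum of 5 and the pseudocount of 1 were applied to the scaled values, so the gene filter changed along with the scale. Among genes at 1 FPKM in both iNKT libraries, a filter that takes out genes low in KO iNKT, 386 were lower. Upper quartile scaling gave 267 higher genes and a median of -0.177. The quartile was taken over each library's genes above 0, and KO iNKT listed 8865 genes at 0 and WT CD44hi 6962. It thus rested on different genes in each library, and the cause of the shift was not tested. With KO CD44hi in place of WT CD44hi, chosen after seeing the data, 245 genes were higher. The other counts stayed within 1.5 times and the other medians within 0.1. The median of plasmacytoid dendritic cell markers turned to 0.21 among genes at 1 FPKM in both iNKT libraries, since its lower members leave. Of 46 named genes past 2-fold, 45 remained so with a pseudocount of 5, all 46 under each rescaling, and 39 against KO CD44hi. Many of the 46 were named for the size of this same difference, so their staying past 2-fold is no check of the other calls. No paired analysis was possible because each group has 1 library. Depth limits low values in KO iNKT more than in WT CD44hi, and 1 library per group means that no difference has a replicate check.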

Other observations

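Chromosome 17 had the largest share of higher genes: 44 of 478 measured (9.21%) against 4.60% over all genes, while 35 were lower (7.32%). In WT iNKT against the same WT CD44hi library, 18 of 457 (3.94%) were higher. Over the autosomes and X the share of higher genes ran from 2.46% on chromosome 8 to 9.21% on chromosome 17. The chromosome 17 genes were chosen for mention after their values were seen. They included Qpct, a glutaminyl cyclase, with 35.4 FPKM in KO iNKT, 2.53 in WT CD44hi, 25.5 in WT iNKT and 11.5 in KO CD44hi. Its neighbour Prkd3, a protein kinase D, stood at 53.9, 7.71, 31.1 and 22.3 FPKM. Both genes were also past 2-fold higher in WT iNKT than in WT CD44hi, so they are not among the genes that set these shares apart.

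Sox13, also chosen after its values were seen, is a factor known from gamma delta T cells and stood at 6.30 FPKM in KO iNKT, 0.0947 in WT CD44hi, 0.873 in WT iNKT and 6.30 in KO CD44hi, so both Ezh2fl/fl CD4-Cre libraries held it at one level and both WT libraries lay below 1 FPKM. The ratio of KO iNKT to WT CD44hi was 66.5 with a counting interval of 29.9 to 183.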
